A study of Rattus norvegicus with 12 samples.

Results

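The respiratory chain genes were those whose probe name in the scanner files, without regard to case or a _predicted ending, began with Nduf, Uqcr, Sdh or Atp5, or with Cox followed by 4, 5, 6, 7 or 8. This rule took 81 probes of 71 genes, out of 41012 probes of 35607 genes on the array, and 69 of the 71 genes entered the fit among 20473 genes. The expression of these genes was measured in the dorsal striatum of 12 male rats, 1 single-colour Agilent array per rat, in 4 groups of 3. Every rat had received 9 µg of the toxin 6-OHDA in the left substantia nigra, which removes the dopamine input of the striatum on that side, so the reference group is itself a lesioned striatum and no intact striatum was on the arrays. The 6-OHDA group had no later treatment. HFS rats were given high frequency stimulation of the subthalamic nucleus (STN) during 5 days, with 80 µs pulses of 60 µA delivered at 130 Hz. In the DOPA group the rats were injected 2 times daily over 19 days with the dopamine precursor L-DOPA (25 mg/kg) and the decarboxylase inhibitor benserazide (12.5 mg/kg). The DOPA/HFS group had both treatments. Rats of both stimulated groups had an electrode implanted in the STN in a further operation after the lesion. The study describes no implanted but unstimulated group on the arrays, so implantation and stimulation cannot be told apart. Rats with insufficient denervation or a misplaced electrode had been left out of the study.

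The respiratory chain lies in the inner membrane of mitochondria. Complex I takes electrons from NADH and complex II from succinate, complex III hands them to cytochrome c, complex IV (cytochrome c oxidase) passes them to oxygen, and ATP synthase uses the proton gradient built by this flow to make ATP. Most subunits are encoded in the nucleus and a smaller set in mitochondrial DNA, and only nuclear genes fit the rule. Neurons depend on this pathway for the cost of signalling, and complex I is the target of toxins used to model Parkinson's disease.

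By prefix, 32 of the tested genes belonged to complex I, 4 to complex II, 5 to complex III, 14 to complex IV and 14 to ATP synthase. The prefix also takes genes that are no subunits. Ndufaf1 is an assembly factor of complex I, Cox4nb is the gene beside Cox4i1 (current symbol Emc8) and Atp5s is the coupling factor B gene (current symbol Dmac2l). They were kept in the counts, and the medians over the 66 subunits by name were 0.03, 0.04 and -0.0020 in HFS, DOPA and DOPA/HFS. Both untested genes, Cox6b and Cox6c1, were above background on 0 arrays. The accession of the Cox6b probe is described in the files as similar to a uroplakin, and Cox6c1 is listed today as a pseudogene of Cox6c, and neither was read as a subunit of the chain. The current symbol of 15 further probes, of 10 genes, would fit the rule under another file name, and they were not counted. A current symbol was found by accession for 45 of the 71 genes. Cox8h is now Cox8b, Ndufs5b is Ndufs5 and Ndufv3l is Ndufv3.

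A shared feature that the rule did not use was looked for in the promoters. Subunit genes of the chain are known targets of the transcription factors NRF1, GABPA (also called NRF2) and YY1. RefSeq promoter windows of the rat assembly GRCr8, from 250 bases before to 50 bases after the annotated start, were found for 58 of the 66 genes that are subunits by name. The letters were searched on both strands: CCGGAAG for GABPA, and for NRF1 and YY1 the runs in capitals in the Atp5o and Uqcrc1 windows printed after the shares. The NRF1 run reads the same on either strand, and none of the 3 strings contains another. NRF1 letters were found in 4 of the 58 windows (6.9%) and in 0.932% of the 27457 windows of all genes. The GABPA letters were in 17 windows (29.3%) against 9.22% of all. YY1 letters were in 9 (15.5%) against 1.16%. At least 1 of the 3 motifs was in 26 of the 58 windows (44.8%) and in 10.8% of all windows. The median GC content was 56.7% in the subunit windows and 52.3% in all windows, and its part in these shares was not tested. All 5 NRF1 matches, in 4 genes, began 51 to 100 bases before the start, where 29.1% of the NRF1 matches in all windows lay. Of the 9 YY1 matches, 7 began at or after the start (77.8%), against 56.2% over all windows. The YY1 letters include ATG, the letters of a start codon. Whether these matches lie in coding sequence, and the part of this in the YY1 share, was not tested.

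**Figure D1:**
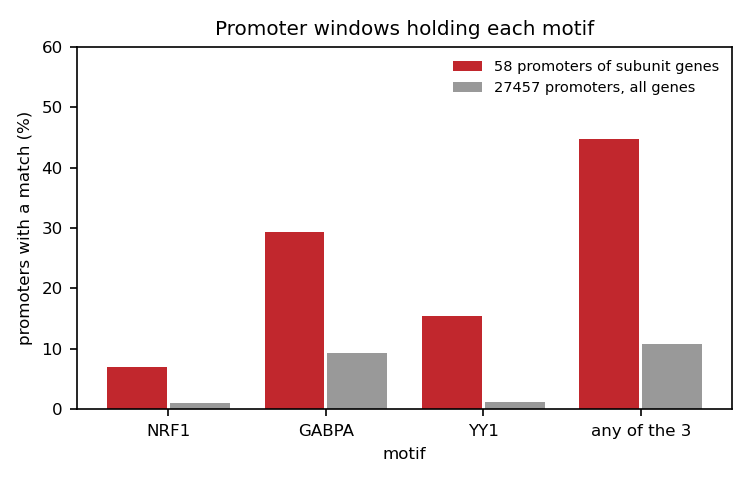
Share of promoter windows (vertical axis, percent) that hold the letters of each motif, in red for the 58 windows of subunit genes and in grey for the 27457 windows of all genes. The red bars stand at 6.9%, 29.3% and 15.5% for NRF1, GABPA and YY1 and at 44.8% for any of them, against 0.932%, 9.22%, 1.16% and 10.8% in grey.

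The printed windows, from 250 bases before to 30 bases after the start, belong to the 4 genes whose HFS arrays all lay above all 6-OHDA arrays (Ndufb11, Uqcrh, Atp5o and Ndufab1) and to Uqcrc1, shown for its YY1 letters. Bases are in lower case and the motif letters in capitals, written 5′ to 3′ on the strand of the gene. Uqcrh holds the GABPA letters on its reverse strand, Atp5o the NRF1 letters and Uqcrc1 the YY1 letters at its start, while Ndufb11 and Ndufab1 hold none of the 3 motifs in this window. The windows are chrX:4126067-4126346 (plus strand) for Ndufb11, chr5:134790853-134791132 (minus) for Uqcrh, chr11:44657454-44657733 (minus) for Atp5o, chr1:186089307-186089586 (minus) for Ndufab1 and chr8:118467973-118468252 (plus) for Uqcrc1.
Ndufb11: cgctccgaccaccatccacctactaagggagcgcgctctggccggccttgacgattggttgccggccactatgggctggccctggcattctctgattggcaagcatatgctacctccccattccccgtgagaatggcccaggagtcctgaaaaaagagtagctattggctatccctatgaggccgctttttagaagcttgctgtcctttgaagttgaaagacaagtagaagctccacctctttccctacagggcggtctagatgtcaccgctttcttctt
Uqcrh: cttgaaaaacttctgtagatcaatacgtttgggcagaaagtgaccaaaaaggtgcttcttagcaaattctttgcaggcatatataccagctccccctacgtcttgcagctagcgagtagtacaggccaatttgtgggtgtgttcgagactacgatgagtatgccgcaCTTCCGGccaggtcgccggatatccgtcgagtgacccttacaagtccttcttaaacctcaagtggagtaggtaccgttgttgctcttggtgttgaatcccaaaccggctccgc
Atp5o: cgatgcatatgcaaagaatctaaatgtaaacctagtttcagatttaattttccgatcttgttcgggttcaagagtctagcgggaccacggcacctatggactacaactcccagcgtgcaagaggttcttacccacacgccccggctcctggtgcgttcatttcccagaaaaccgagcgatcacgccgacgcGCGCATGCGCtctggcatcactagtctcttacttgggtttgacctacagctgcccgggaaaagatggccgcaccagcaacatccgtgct
Ndufab1: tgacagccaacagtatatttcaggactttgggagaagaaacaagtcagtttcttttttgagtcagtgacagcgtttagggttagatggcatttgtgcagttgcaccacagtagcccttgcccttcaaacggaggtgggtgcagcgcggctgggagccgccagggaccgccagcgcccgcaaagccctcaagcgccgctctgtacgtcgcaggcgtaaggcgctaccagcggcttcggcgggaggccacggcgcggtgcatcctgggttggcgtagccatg
Uqcrc1: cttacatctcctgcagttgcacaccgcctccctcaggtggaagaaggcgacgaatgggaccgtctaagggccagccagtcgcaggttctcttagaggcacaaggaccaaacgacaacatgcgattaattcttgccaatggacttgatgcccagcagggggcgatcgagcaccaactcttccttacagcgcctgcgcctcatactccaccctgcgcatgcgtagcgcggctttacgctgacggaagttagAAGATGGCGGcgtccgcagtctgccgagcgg

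The respiratory chain genes were well detected in every group. Of the 69 tested genes, 68 were well above background on all 12 arrays (98.6%), against 80.7% of all tested genes. The exception was Cox6b2, an isoform of complex IV known from testis, which was above background on 8 arrays (2 of 6-OHDA, 3 of HFS, 1 of DOPA and 2 of DOPA/HFS). The probes of Atp5i and Cox6a1 were saturated on all 12 arrays, and that of Ndufb8 on all arrays of 6-OHDA, HFS and DOPA, so no fold is given for these 3 where both groups were saturated. On DOPA/HFS replicate 3 the scanner software marked 4175 spots as outliers (2 to 25 on the other arrays). These were left out, and Cox4i1, Cox4i2, Ndufb9, Ndufv1 and Uqcrc2 therefore had 2 values in that group. Markers of striatal projection neurons were above background on every array (10 of 10 found). Of the 6 skeletal muscle markers found, 4 were above background on no array and 2 were so on all 12 arrays.

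The array of 6-OHDA replicate 2 stood apart before any comparison. It held the highest value of 19 and the lowest value of 13 of the 64 members with a value on all 12 arrays. The other arrays held between 0 and 9 of the highest and between 0 and 11 of the lowest values. The same array held the highest value of 20.5% and the lowest of 20.9% of all complete genes, so it stood apart over all genes. The deviations of the members from their own means had an SD of 0.35 on it, against 0.11 to 0.25 on the other arrays.

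The deviations on this array did not all run one way. A fixed list of 20 genes, called core subunits here, holds those that carry electrons or catalyse, with their close partners. Its complex IV genes are nuclear partners only, since the catalytic subunits of that complex are encoded in mitochondrial DNA. This list had 5 members above and 15 below their own mean on 6-OHDA replicate 2, with a median deviation of -0.23. The 49 other members had 31 above, with a median of 0.08. On 6-OHDA replicate 3 the order was the opposite (medians 0.08 and -0.02), and DOPA/HFS replicate 1 had the highest core median, 0.16, beside -0.11 for the others. Atp5a1, Atp5b and Atp5c1, which make the catalytic head of ATP synthase and its central shaft, deviated from their means by -0.55, -0.52 and -0.64 on 6-OHDA replicate 2. Ndufa7, Ndufb3 and Cox5a deviated by 1.29, 0.68 and 0.64 there, and of these Cox5a is on the core list. Without this array the sign of the difference changed for 26, 21 and 21 of the 69 members in HFS, DOPA and DOPA/HFS. Because 1 of 3 reference arrays behaved so, values without it are given beside the results described in most detail.

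**Figure D2:**
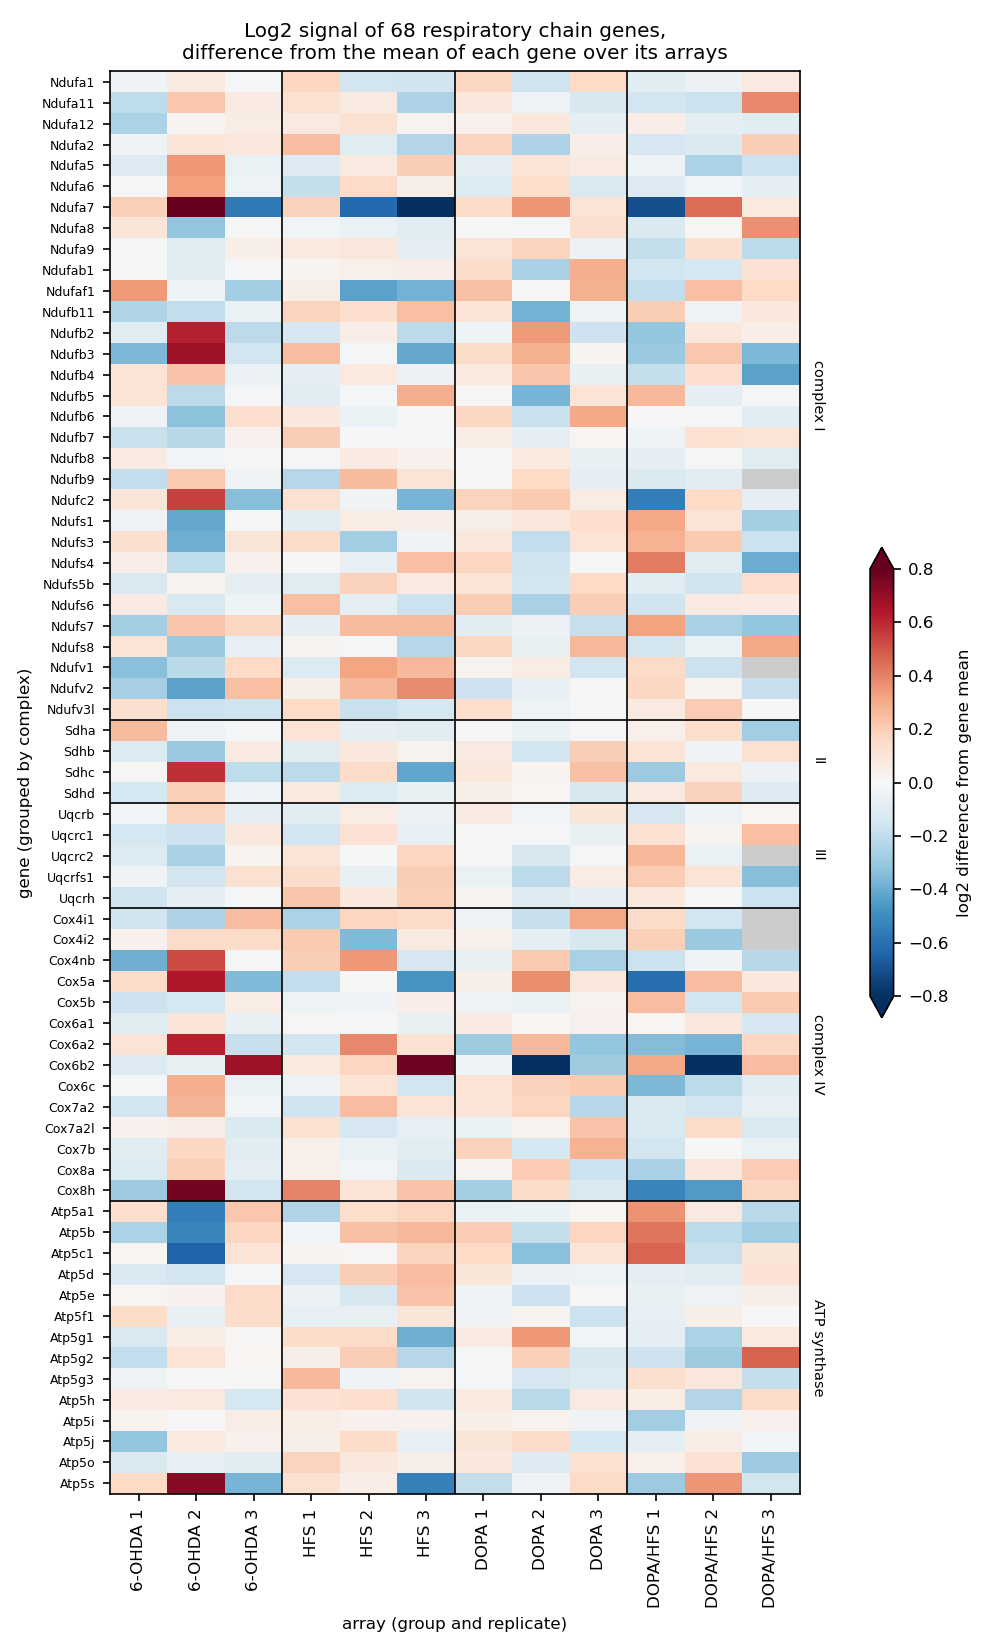
Log2 signal of 68 of the tested genes (rows, grouped by complex) on the 12 arrays (columns, by group and replicate) as the difference from the mean of each gene over its arrays. Red is above and blue below the mean, colours stop at 0.8 in either direction, and grey marks the 5 values left out as outlier spots. The second 6-OHDA column carries the strongest colours, with an SD over the members of 0.35 against 0.11 to 0.25 in the other columns.

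**Figure D3:**
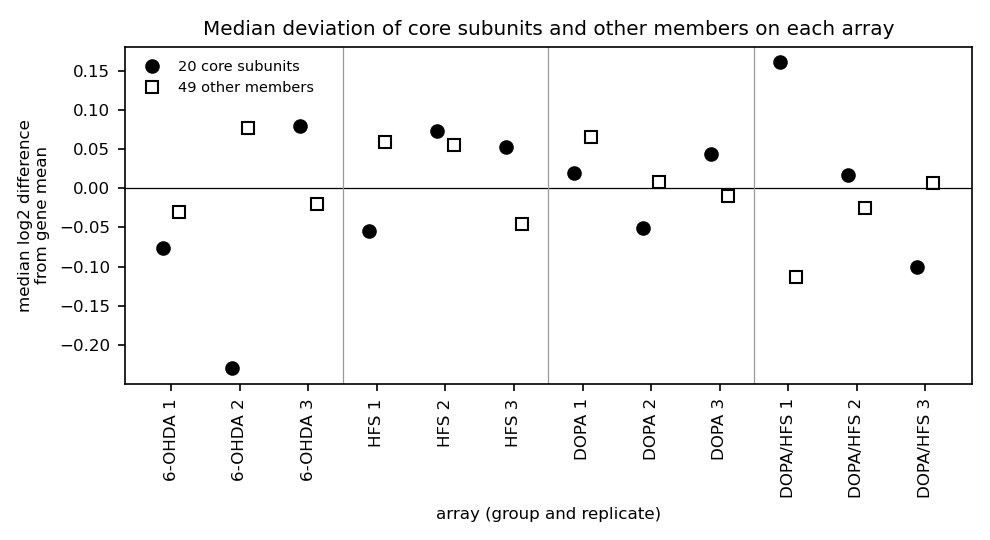
Median log2 difference from the gene mean on each array (horizontal axis), as filled circles for the 20 core subunits and open squares for the 49 other members. The circle of 6-OHDA replicate 2 lies lowest, at -0.23, and that of DOPA/HFS replicate 1 highest, at 0.16.

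The question of the comparisons was whether either treatment, or both together, altered the expression of the chain in the lesioned striatum. A gene was called at a limma p adjusted over all 20473 genes (Benjamini-Hochberg) under 0.1 together with a fold over 1.2 or under 0.8. No respiratory chain gene was called in any comparison by limma. In HFS against 6-OHDA, 0 of 69 members and 0% of all genes were called. In DOPA against 6-OHDA, 0 members and 0.00488% of all genes (1 gene) were called, and in DOPA/HFS 0 members and 0%. The moderated F test over the 4 groups called 0 members and 0.00488% of all genes, and the interaction of both treatments 0 members and 0%. At an unadjusted p under 0.05 there was 1 member (Ndufb11) in HFS, where 2.35% of all genes passed, and there were 0 in DOPA (2.6%), 0 in DOPA/HFS (2.75%), 0 for the interaction (1.99%) and 0 for the F test (2.83%). The lowest adjusted p of any member was 0.998 in HFS, and 1 in both other comparisons.

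The differences themselves were small. The median log2 difference over the 69 members was 0.03, 0.04 and -0.01 in HFS, DOPA and DOPA/HFS, beside 0.01, -0.01 and -0.01 over all tested genes, and scaling to the 75th percentile turned the first to -0.07. Without the 4 genes whose probes were saturated on all 6-OHDA arrays (Atp5i, Cox6a1, Ndufb4 and Ndufb8), the 65 others had medians of 0.03, 0.04 and 0.0086. By direction, 41, 42 and 34 members had the higher mean in the same order (all genes 51.6%, 47.7% and 47.7%). The fold limits were passed by 6 members in HFS (8.7%, all genes 23.1%), by 2 in DOPA (2.9%, all genes 18.3%) and by 4 in DOPA/HFS (5.8%, all genes 22.3%). Without 6-OHDA replicate 2 these counts became 3, 5 and 1 (all genes 16.9%, 21.6% and 16%). The 95% interval of the difference lay within 1 on the log2 scale for 68, 67 and 67 of the 69 members in HFS, DOPA and DOPA/HFS (78.4%, 80.8% and 78% of all genes). Ndufa7 was outside in each of them and Cox6b2 in DOPA and DOPA/HFS. These interval counts include the 4 genes saturated on all 6-OHDA arrays.

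The spread between arrays of a group was small. The residual SD had a median of 0.18 over the members (0.05 to 0.62) and of 0.27 over all tested genes. The lowest, 0.05, was that of the saturated Ndufb8 probe, and the saturated Cox6a1 and Atp5i probes had 0.08 and 0.09. Saturation limits how far a value can move. Saturated probes were kept in the values of this paragraph, and their part in the small spread was not tested. Spread falls with brightness on these arrays, and 61 of the 69 members were among the 5118 brightest genes. Among these the median SD was 0.17 for the members and 0.2 for all of them. The median standard error of a difference was 0.16 over the members and 0.22 over all genes, and an exact two-sided permutation test of 3 arrays against 3 cannot give less than p = 0.1.

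**Figure D4:**
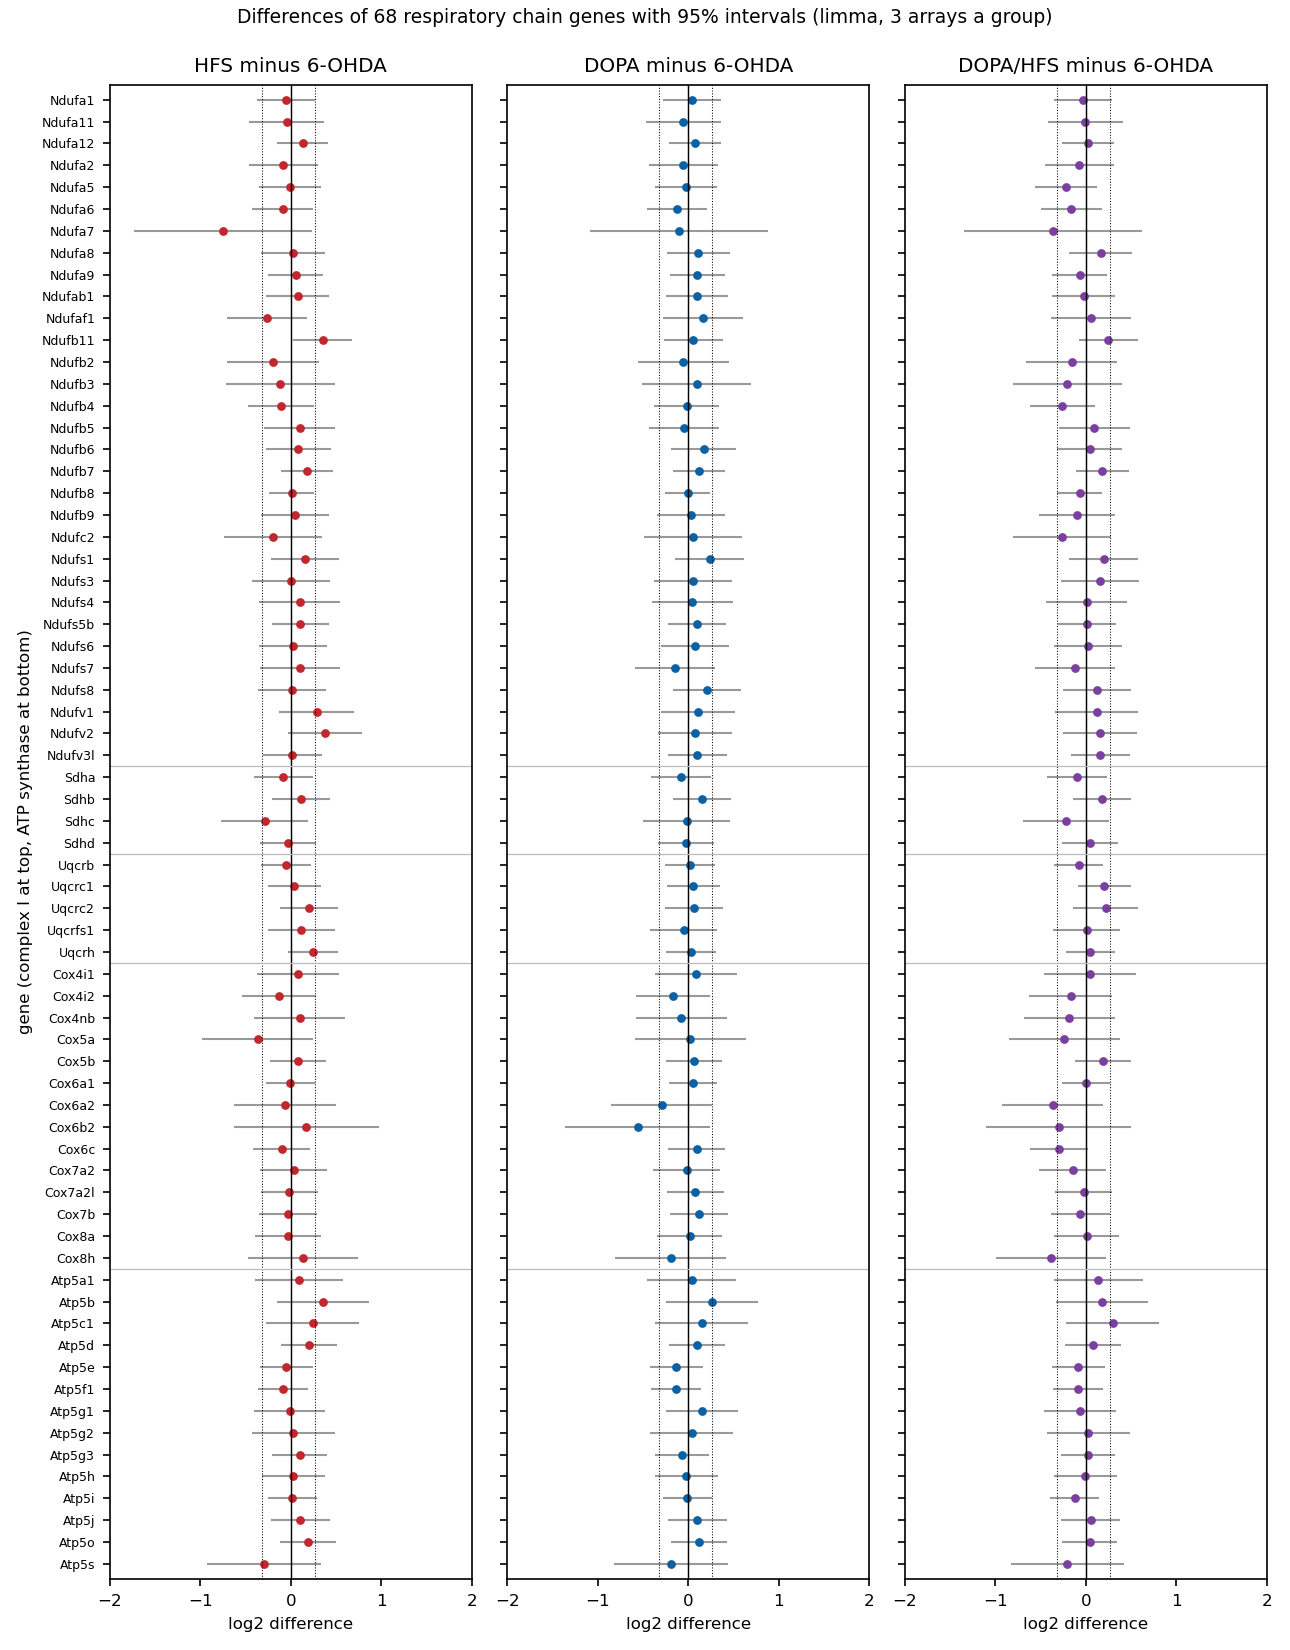
Log2 difference of 68 members from the 6-OHDA group (points) with its 95% interval (lines, limma), in HFS, DOPA and DOPA/HFS, with complex I at the top and ATP synthase at the bottom. Dotted lines mark the folds 1.2 and 0.8, and of the 68 intervals in each panel only that of Ndufb11 in HFS leaves out 0.

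Complex I had 32 tested genes. Its median difference was 0.02, 0.06 and 0.0020 in HFS, DOPA and DOPA/HFS, with 20, 21 and 16 genes at the higher mean. The member nearest to a call in any comparison was Ndufb11, an accessory subunit of the membrane arm. Its log2 signal was 13.33, 13.37 and 13.52 on the 6-OHDA arrays (replicates 1 to 3) and 13.75, 13.70 and 13.81 on the HFS arrays. It was 13.67, 13.19 and 13.53 in DOPA and 13.77, 13.54 and 13.65 in DOPA/HFS. The HFS and DOPA/HFS arrays lay above all 6-OHDA arrays, and the DOPA arrays overlapped with them. The difference in HFS was 0.35 (SE 0.15, 95% interval 0.02 to 0.68, fold 1.28, adjusted p = 0.998), with 0.42, 0.33 and 0.30 within slides 1, 2 and 3 and an exact permutation p of 0.1. In DOPA/HFS it was 0.25 (SE 0.15, interval -0.08 to 0.58, adjusted p = 1), with 0.44, 0.17 and 0.13 within the slides. Leaving out single arrays gave 0.31 to 0.41 in HFS and 0.19 to 0.30 in DOPA/HFS. In DOPA/HFS the difference was 0.13 with the deposited log2 table.

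Ndufv1 and Ndufv2 form the site where complex I oxidises NADH. Ndufv2 was at 14.76, 14.60 and 15.27 in 6-OHDA and at 15.07, 15.29 and 15.40 in HFS, where the lowest HFS array lay below the highest 6-OHDA array. Its difference was 0.38 (SE 0.18, interval -0.03 to 0.79, adjusted p = 0.998), the largest positive value of the members in HFS. It was 0.24 without 6-OHDA replicate 2. Ndufv1 was at 12.49, 12.61 and 12.99 in 6-OHDA and at 12.72, 13.14 and 13.09 in HFS, with a difference of 0.29 (SE 0.18). In DOPA and DOPA/HFS the differences of Ndufv2 (0.07 and 0.15) and of Ndufv1 (0.11 and 0.12) were smaller than their standard errors.

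The widest spread in complex I was that of Ndufa7, an accessory subunit. Its signal was 12.33, 13.43 and 11.58 in 6-OHDA, so the reference arrays alone ran from 11.58 to 13.43. HFS gave 12.33, 11.52 and 11.24, DOPA 12.29, 12.50 and 12.26, and DOPA/HFS 11.44, 12.59 and 12.22. The difference of -0.75 in HFS (SE 0.45, interval -1.74 to 0.23, fold 0.59, adjusted p = 0.998) came to -0.01, -1.91 and -0.34 within slides 1, 2 and 3. Without 6-OHDA replicate 2 it was -0.26. Ndufs1, the largest iron-sulfur subunit, was at 12.02, 11.65 and 12.07 in 6-OHDA and at 12.11, 12.14 and 12.19 in DOPA, all above the reference. The difference was 0.24 (SE 0.17, adjusted p = 1, exact permutation p = 0.1), and it was 0.11 without 6-OHDA replicate 2.

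Other complex I genes that came nearest to a call in DOPA were Ndufs8, an iron-sulfur subunit (0.21, SE 0.17), and Ndufb6 (0.17, SE 0.16), which had 0.10 and 0.04 without 6-OHDA replicate 2. A second, less bright Ndufs8 probe gave 0.08 in DOPA. In DOPA/HFS the nearest were Ndufa5 (-0.22, SE 0.16, and -0.08 without that array), Ndufb7 (0.18, SE 0.13) and Ndufb4. The arrays of both groups overlapped for each of these 5 genes. The Ndufb4 probe was saturated on all 3 arrays of 6-OHDA and on 2 of DOPA/HFS, so its difference is not given. Ndufs3 and Ndufs7, subunits of the arm that leads to ubiquinone, had differences between -0.14 and 0.16 in the 3 comparisons, each smaller than its standard error. Ndufab1, the mitochondrial acyl carrier protein, was at 13.03, 12.94 and 13.01 in 6-OHDA and 13.05, 13.07 and 13.08 in HFS. These arrays do not overlap, but the difference was 0.08 (SE 0.16, exact permutation p = 0.1, adjusted p = 0.998).

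Complex II, which is also succinate dehydrogenase of the citric acid cycle, had 4 genes with differences from -0.29 to 0.12 in HFS, -0.08 to 0.15 in DOPA and -0.22 to 0.18 in DOPA/HFS. Sdhb, its iron-sulfur subunit, gave the highest value in each comparison and Sdhc, a membrane anchor, the lowest in HFS and DOPA/HFS. Sdhc was at 12.49, 13.07 and 12.28 in 6-OHDA, and its difference in HFS of -0.29 (SE 0.22) became -0.06 without replicate 2. Sdhb was at 13.02, 12.83 and 13.20 in 6-OHDA and at 13.24, 13.10 and 13.25 in DOPA/HFS (0.18, SE 0.15, and 0.08 without replicate 2 of 6-OHDA). Sdha, the flavoprotein, stayed between -0.10 and -0.08, and Sdhd between -0.03 and 0.05.

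In complex III, 4 of 5 genes had the higher mean in every comparison, with medians of 0.12, 0.03 and 0.05 in HFS, DOPA and DOPA/HFS. Without 6-OHDA replicate 2 the medians were 0.05, 0.0097 and 0.05, with 4, 3 and 3 genes higher. Uqcrh, the hinge protein that binds cytochrome c1, was at 15.41, 15.48 and 15.55 in 6-OHDA and at 15.78, 15.64 and 15.75 in HFS, with no overlap. In DOPA it was at 15.58, 15.46 and 15.49, and in DOPA/HFS at 15.65, 15.55 and 15.39, overlapping with 6-OHDA. The HFS difference was 0.25 (SE 0.12, interval -0.03 to 0.52, fold 1.19, adjusted p = 0.998, exact permutation p = 0.1), with 0.38, 0.16 and 0.20 within the slides. Scaling to the 75th percentile in place of quantile normalization gave 0.07. Uqcrc2, a core protein, had 0.20 (SE 0.14, and 0.13 without 6-OHDA replicate 2) in HFS, with 0.21, 0.26 and 0.14 within the slides, though its arrays overlapped with 6-OHDA. Uqcrc1, the other core protein, was at 11.82, 11.79 and 12.04 in 6-OHDA and at 12.08, 11.99 and 12.20 in DOPA/HFS, a difference of 0.20 (SE 0.13, adjusted p = 1). Uqcrfs1, the Rieske iron-sulfur protein, and Uqcrb stayed between -0.08 and 0.12. Less bright Uqcrb probes gave 0.17 and 0.22 in DOPA and stayed within that range in HFS and DOPA/HFS.

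Complex IV had 14 tested genes, and its median was -0.01, 0.02 and -0.16 in HFS, DOPA and DOPA/HFS, where 4 of 14 genes had the higher mean. In 6-OHDA replicate 2, 11 of these 14 genes were above their own mean, with a median deviation of 0.18, against 4 of 14 on each other 6-OHDA array (-0.10 and -0.06). Without that array the medians were 0.06, 0.11 and -0.01 in HFS, DOPA and DOPA/HFS, with 11, 10 and 7 of 14 higher. Within slides 1, 2 and 3 the DOPA/HFS median was -0.01, -0.41 and 0.02, lowest on the slide of that array. On DOPA/HFS replicates 1, 2 and 3 themselves, the median deviation of complex IV was -0.13, -0.15 and 0.02.

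Cox6c, a small nuclear subunit of complex IV, was chosen because the study lists it as down-regulated in DOPA/HFS against 6-OHDA, by tests other than those used here. That list was drawn from these arrays, so the values of Cox6c are no independent evidence of a direction. Its signal was 15.82, 16.12 and 15.77 in 6-OHDA, 15.79, 15.94 and 15.67 in HFS and 15.94, 16.01 and 16.03 in DOPA. In DOPA/HFS it was 15.46, 15.62 and 15.74, below every 6-OHDA array, with 0.03 between the nearest arrays of the 2 groups. The difference was -0.29 (SE 0.14, interval -0.61 to 0.02, fold 0.82, unadjusted limma p = 0.065, adjusted p = 1), with an exact permutation p of 0.1. Within the slides it was -0.35, -0.50 and -0.03, and without 6-OHDA replicate 2 it was -0.19. In HFS the difference was -0.10 and in DOPA 0.09 (SE 0.14 each). Cox6c also had the lowest unadjusted p of the members for the interaction (0.191) and for the F test (0.1), both with an adjusted p of 1.

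Several subunits of complex IV and ATP synthase exist as isoforms made by different genes, of which some are known from heart, muscle, lung or testis. The isoform list had 13 tested genes, and 0 were called in any comparison, with medians of -0.0038, 0.01 and -0.06 in HFS, DOPA and DOPA/HFS and with 6, 7 and 5 genes at the higher mean. The HFS median is the measured value of the saturated Cox6a1 probe, and the 12 other genes had medians of 0.0072, -0.0012 and -0.06 in the same order. Cox4i1, the common isoform of subunit 4, had 0.08, 0.08 and 0.05 in HFS, DOPA and DOPA/HFS (SE 0.20, 0.20 and 0.23), and -0.02, -0.01 and -0.05 without 6-OHDA replicate 2. Cox4i2, its isoform known from lung and low oxygen, had -0.14, -0.17 and -0.17 (SE 0.18, 0.18 and 0.21). Cox6a2, the heart and muscle isoform, was at 8.40, 8.92 and 8.12 in 6-OHDA and at 7.95, 7.93 and 8.47 in DOPA/HFS (-0.37, SE 0.25), and without 6-OHDA replicate 2 the difference was -0.14. Cox8h, the muscle isoform of subunit 8, was at 7.56, 8.62 and 7.70 in 6-OHDA and at 7.32, 7.39 and 8.02 in DOPA/HFS. Its difference of -0.38 (SE 0.28), the lowest of the members there, became -0.06 without that array.

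Cox6b2 was at 5.34, 5.39 and 6.12 in 6-OHDA and at 5.42, 4.59 and 5.16 in DOPA, and 1 of the 3 DOPA arrays measured it above background. The difference was -0.56 (SE 0.37, interval -1.37 to 0.24, adjusted p = 1). It went from -0.74 to -0.31 when single arrays were left out, and it was -0.19 with normexp background correction and -0.19 with the deposited log2 table. Cox5a, whose probe varied most on the reference arrays among the complex IV genes of the core list, was at 14.53, 15.02 and 14.02 in 6-OHDA. In HFS it was at 14.18, 14.38 and 13.90 (-0.37, SE 0.28, and -0.12 without 6-OHDA replicate 2). The other members of the complex, Cox5b, Cox7a2, Cox7a2l, Cox7b and Cox8a, had differences between -0.14 and 0.19. A second, less bright Cox5b probe gave -0.16, 0.13 and -0.01 in HFS, DOPA and DOPA/HFS.

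For ATP synthase, 14 genes gave medians of 0.06, 0.04 and 0.03 in HFS, DOPA and DOPA/HFS, with 10, 8 and 8 genes at the higher mean. Without Atp5s, the HFS median was 0.09. Atp5b, the catalytic beta subunit, was at 14.22, 13.95 and 14.64 in 6-OHDA. It was at 14.45, 14.71 and 14.74 in HFS (0.36, SE 0.23, fold 1.28), and at 14.68, 14.28 and 14.64 in DOPA (0.26, SE 0.23). Both differences shrank without 6-OHDA replicate 2, to 0.20 and 0.10. The alpha subunit gene Atp5a1 had 0.09, 0.04 and 0.14 in HFS, DOPA and DOPA/HFS and turned to -0.15, -0.20 and -0.10 without that array. The gamma subunit gene Atp5c1 had 0.24, 0.15 and 0.30 (SE 0.23 each), and 0.01, -0.08 and 0.07 without it.

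Atp5o encodes the stalk protein that confers sensitivity to oligomycin. It was at 15.60, 15.65 and 15.64 in 6-OHDA, among the closest of the members, and at 15.89, 15.80 and 15.77 in HFS. The difference was 0.19 (SE 0.14, interval -0.12 to 0.50, adjusted p = 0.998, exact permutation p = 0.1), with 0.29, 0.15 and 0.13 within the slides. In DOPA (0.12) and DOPA/HFS (0.04) the arrays overlapped with 6-OHDA. Atp5e, the epsilon subunit, was at 16.64, 16.65 and 16.77 in 6-OHDA and at 16.59, 16.46 and 16.62 in DOPA, all below, with 1 of the 3 6-OHDA arrays saturated. Its difference was -0.13 (SE 0.13, exact permutation p = 0.1, adjusted p = 1). Atp5d and Atp5f1 had their largest differences in HFS (0.20, SE 0.14) and in DOPA (-0.14, SE 0.13, with 2 of 3 6-OHDA arrays saturated). Subunit c, the rotating ring, is made by 3 genes with the same mature product, Atp5g1, Atp5g2 and Atp5g3, and their differences lay between -0.07 and 0.15 in the 3 comparisons. A second, less bright Atp5g2 probe gave -0.05, -0.04 and -0.09 in HFS, DOPA and DOPA/HFS, beside 0.03, 0.04 and 0.03 for the probe used.

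**Figure D5:**
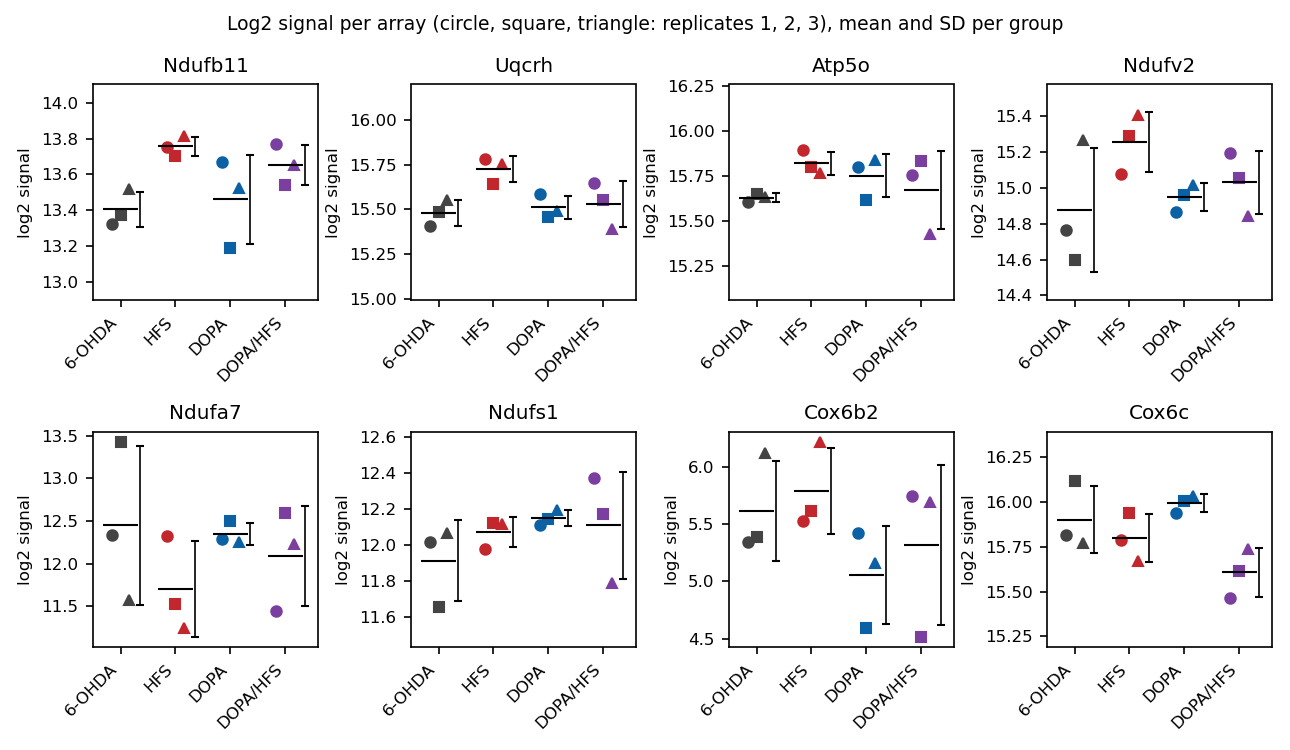
Log2 signal (vertical axis, its range differs between panels) of 8 genes on each array, as circles, squares and triangles for replicates 1, 2 and 3, with the group mean (line) and SD (bar beside it, n = 3). HFS lies above 6-OHDA without overlap for Ndufb11, Uqcrh and Atp5o, DOPA/HFS lies below for Cox6c, and the 6-OHDA arrays of Ndufa7 run from 11.58 to 13.43.

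Counted over all members, the HFS arrays all lay above the 6-OHDA arrays for 4 genes (5.8%, all genes 2.79%) and all below for 0 (all genes 2.34%). In DOPA, 1 gene lay above (Ndufs1, all genes 3.16%) and 1 below (Atp5e, all genes 3.12%). In DOPA/HFS, 1 lay above (Ndufb11, all genes 2.08%) and 1 below (Cox6c, all genes 3.04%). With the fold limits added, 1 member (Ndufb11) was left in HFS, where 3.2% of all genes were (1.87% higher and 1.33% lower). In DOPA 0 were left (3.88% of all genes, 2.1% higher and 1.78% lower), and in DOPA/HFS 0 (3.42%, 1.31% higher and 2.11% lower). Leaving out 6-OHDA replicate 3 gave 10 members in HFS (14.5%, all genes 18.3%), 4 in DOPA (5.8%, all genes 11.5%) and 7 in DOPA/HFS (10.1%, all genes 12.8%). Leaving out 6-OHDA replicate 2 gave 2 (2.9%, all genes 6.32%), 1 (1.45%, all genes 9.1%) and 0 (all genes 5.23%) in the same order. Without HFS replicate 1 the HFS count was 7 (10.1%, all genes 11.5%). Since fewer arrays separate more easily, these counts are not set against the main ones.

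The 20 core subunits had the higher mean 15, 14 and 15 times in HFS, DOPA and DOPA/HFS, with medians of 0.08, 0.06 and 0.13. Without 6-OHDA replicate 2 the medians were 0.02 in each comparison, with 12, 11 and 14 genes higher. The 49 other members had medians of 0.01, 0.03 and -0.06, which became 0.05, 0.07 and 0.01. The HFS median of these 49 is the measured value of the saturated Atp5i probe. Without the 4 genes saturated on all 6-OHDA arrays, the 45 left had medians of 0.02, 0.04 and -0.03, and of 0.05, 0.08 and 0.01 without 6-OHDA replicate 2. The 3 comparisons share the 6-OHDA arrays, so their values are not independent of each other.

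The interaction, the effect of stimulation under L-DOPA minus that without it, had a median of -0.08 over the members and was positive in 24 of 69 (34.8%), against -0.01 and 48.5% over all genes. The lowest value was -0.44 for Atp5b and the highest 0.49 for Ndufa7. Without 6-OHDA replicate 2 these were -0.28 and -0.0051, the median was -0.07 and 22 of 69 were positive (31.9%, all genes 49.9%), and the extremes were then -0.65 for Cox8h and 0.27 for Ndufs3.

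Genes listed as markers of choroid plexus were higher in the HFS group. Of 13 listed choroid plexus genes 12 were found and 10 tested, and all 10 had the higher mean in HFS at an unadjusted p under 0.05, with a median of 1.80, while 0 were called by limma after adjustment. The mean log2 signal of the 12 found genes ranged from 5.92 to 6.25 over the 6-OHDA arrays, 7.22 to 9.80 in HFS, 5.72 to 8.13 in DOPA and 5.91 to 6.58 in DOPA/HFS, and none of the 12 was below background on all arrays. The study found Ttr, Sostdc1 and Igf2, all on this list, higher by RT-qPCR in other HFS rats, and it reads the Ttr rise as striatal expression. Whether these transcripts came from striatum or from choroid plexus in the samples was not tested. The part of choroid plexus tissue in the HFS values of Ndufb11, Uqcrh, Atp5o and Ndufab1 was not tested either. The medians of the lists for striatal projection neurons, astrocytes, oligodendrocytes, microglia and endothelium lay between -0.05 and 0.18 in the 3 comparisons. Of the cortex neuron list 2 of 7 genes were found, with medians of 0.49, 0.39 and 0.27 in HFS, DOPA and DOPA/HFS, and of the skeletal muscle list 2 were tested (-0.09, 0.08 and 0.18). In bulk tissue, fewer cells of a type and less RNA per cell cannot be told apart.

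Genes around the chain were read from lists of its regulators, of carriers and assembly factors, and of pyruvate dehydrogenase with the citric acid cycle. Of 12, 18 and 16 tested genes, 0 were called by limma in any comparison. The regulators had 6, 8 and 7 genes at the higher mean in HFS, DOPA and DOPA/HFS, the carriers and assembly factors 10, 14 and 10, and the enzymes 8, 10 and 9. At an unadjusted p under 0.05 there was 1, Slc25a5 in DOPA, the carrier that exchanges ADP for ATP. It was at 15.28, 14.81 and 15.23 in 6-OHDA and at 15.56, 15.35 and 15.52 in DOPA, all above (0.37, SE 0.15, adjusted p = 1, exact permutation p = 0.1), and the difference was 0.22 without 6-OHDA replicate 2. Pdhb, a subunit of pyruvate dehydrogenase, and Dlst, of the oxoglutarate dehydrogenase complex, also lay above 6-OHDA on all DOPA arrays, by 0.33 (SE 0.17) and 0.20 (SE 0.12), or 0.19 and 0.19 without that array. Of the carriers and assembly factors, Vdac3 lay above too (0.14, SE 0.12, or 0.13 without that array). Surf1, of the same list, lay below on all DOPA arrays (-0.16, SE 0.13, or -0.09 without that array). Over all genes, 3.16% lay above and 3.12% below in DOPA. Ppargc1a, the coactivator that drives mitochondrial biogenesis, was at 5.66, 5.29 and 6.46 in 6-OHDA and at 6.35, 6.11 and 6.83 in HFS. These arrays overlap, and the difference was 0.63 (SE 0.29, adjusted p = 0.998), or 0.37 without 6-OHDA replicate 2.

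Nrf1, whose motif was searched in the promoters, was at 7.38, 6.79 and 7.54 in 6-OHDA and differed by 0.30, 0.21 and 0.23 in HFS, DOPA and DOPA/HFS (SE 0.19 each). Its lowest value was again on 6-OHDA replicate 2, and without that array the differences were 0.08, -0.01 and 0.0057. Gabpa differed by -0.11, 0.14 and 0.0034 in HFS, DOPA and DOPA/HFS (SE 0.19 each), or -0.26, -0.0076 and -0.15 without that array. Yy1 differed by 0.08, 0.04 and -0.14 in the same order (SE 0.15 each), or 0.20, 0.16 and -0.02 without that array. Cox17, a copper chaperone of complex IV assembly, was at 14.91, 15.20 and 14.93 in 6-OHDA and at 14.80, 14.82 and 14.84 in DOPA/HFS, all below (-0.20, SE 0.12, adjusted p = 1, exact permutation p = 0.1). It lay below 6-OHDA on all HFS arrays too (-0.14, SE 0.12). Cox17 and Cox6c both had their highest 6-OHDA value on replicate 2, without which the Cox17 differences were -0.10 in DOPA/HFS and -0.04 in HFS. Vdac2, a channel of the outer membrane, differed by 0.16, 0.19 and 0.19 (SE 0.13 each), or 0.06, 0.10 and 0.10 without that array.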

How the data were processed

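Single-colour Agilent arrays, 4 on each of 3 slides, measured striatal RNA of 12 rats. The deposited spot intensities were made by the authors with Agilent Feature Extraction 9.1, which subtracts background and detrends each array. The deposited log2 table, quantile normalized by the authors, served as an alternative only. From the intensities, log2 values without pseudocount were quantile normalized with outlier spots left out, spots were averaged per probe, probes well above background on at least 0.4 of the arrays were kept, and the brightest probe stood for its gene. Groups were compared with limma 3.58.1 (R 4.3.3) in 1 fit of all 12 arrays, with Benjamini-Hochberg adjustment over all genes, in place of the SAM and Wilcoxon steps of the study. The script was tested on simulated data. Single values had an exact two-sided permutation test. The limma p-values use a spread between rats that is pooled over all 4 groups for each gene and moderated over all tested genes. Each group held 3 rats, and the small number of arrays limits the precision. The number of a replicate is its slide, but same-numbered arrays of different groups did not all deviate together (correlations of -0.29 to 0.48 over 18 pairs, median 0.11, against -0.45 to 0.54 and a median of -0.07 over 36 pairs with different numbers). Each group kept 1 position on every slide, so position and treatment cannot be told apart. The genes described in the text were the core subunits, the isoforms, Cox6c, the 8 members with the lowest unadjusted p per comparison, members not above background on all arrays of a group, and the 3 neighbours of the chain with the lowest p per list and comparison; some of these are given only as counts and ranges. 1 tested member entered all fits and counts but is not reported here by name. Members, lists and rules were chosen with earlier results of these data known. Alternatives covered scaling, background, filter, probe choice, samples, thresholds, slide and single arrays.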

Additional observations from a re-analysis of the deposited data

How the results depend on the processing

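No respiratory chain gene was called in any comparison, for the interaction or in the F test under any alternative run, including those that left out single arrays. With the replicate block (the slide) 0 members were called in each of these 5 tests. The lowest adjusted p of a member was 0.549 in HFS, 0.956 in DOPA and 0.729 under both treatments, each when 1 array was left out. The differences of Cox6b2 and Ndufs1 in DOPA, Cox6c and Ndufb11 under both treatments, and Ndufa7, Ndufb11, Ndufv2 and Uqcrh in HFS kept their direction in all 168 recomputed values. These genes were chosen with the same arrays known, and some alternatives return the same difference by construction. The recomputed values are therefore no independent evidence of a direction. Over the 69 members, leaving out 6-OHDA replicate 2 changed the sign of 26, 21 and 21 differences in HFS, DOPA and DOPA/HFS. The median difference over the members moved more. With 75th percentile scaling it was -0.069 in HFS and -0.080 in DOPA/HFS. With the deposited log2 table it was -0.092 in DOPA/HFS, where the median of all genes was -0.12, and with outlier spots kept, an alternative chosen after seeing the data, it was -0.071 beside -0.14 for all genes. Within slides 1, 2 and 3 the DOPA median was 0.11, -0.053 and -0.0026, the DOPA/HFS median was 0.035 on slide 1 and the HFS median -0.019 on slide 3. Leaving out single arrays gave 0.0064 to 0.029 in HFS, 0.016 to 0.061 in DOPA and -0.043 to 0.015 for both treatments. The count of members past the fold limits whose groups did not overlap was 1 in HFS and 0 in each other comparison. It was 0 in HFS with 75th percentile scaling (all genes 3.35%), and without a fold limit it was 4, 2 and 2 (all genes 5.13%, 6.27% and 5.12%). In DOPA/HFS it was 1 with normexp (all genes 2.09%), 4 with the deposited table (5.8%, all genes 3.32%) and 2 with outlier spots kept (all genes 3.97%). Leaving out single arrays gave 1 to 10 in HFS, 0 to 4 in DOPA and 0 to 7 under both treatments, with each highest count without 6-OHDA replicate 3 (all genes 18.3%, 11.5% and 12.8% there). Apart from the scaling itself, the cause of these shifts was not tested. Saturated probes and 3 arrays per group limit the precision.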
